A study of Mus musculus with 6 samples.

Results

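The 10 genes described here run the G1 phase of the mammalian cell cycle: the D-type cyclins Ccnd1, Ccnd2 and Ccnd3, the E-type cyclins Ccne1 and Ccne2, the cyclin-dependent kinases Cdk4 and Cdk6, the kinase inhibitors Cdkn1a (p21) and Cdkn1b (p27), and the transcription factor E2f1. They were chosen by name from textbook knowledge of the pathway, with earlier results of these data known. Counts over the set are therefore a description and not independent evidence. Of 35275 genes in the count table, 15628 had enough counts to be tested, all 10 members among them. Whole colon tissue of C57BL/6 mice was profiled by RNA-seq 6 h after treatment with 22-B3, an engineered variant of the cytokine interleukin-22 (IL-22), with wild-type IL-22 (WT IL-22), or with phosphate-buffered saline (PBS). The labels call the 22-B3 and WT IL-22 samples LH30 and LH5 and give 200 µg per mouse as the amount, and no sample carried a genetic change according to them. Each of the 3 groups had 2 libraries, with 17428528 and 19022869 counts for 22-B3, 20740041 and 22081904 for WT IL-22, and 19329695 and 19744956 for PBS. Nothing in the labels ties the 2 libraries of a group to different animals, so a p-value reflects how far apart these libraries lie, and that distance may be technical. The comparisons ask how each protein changed G1 gene expression relative to PBS, and where 22-B3 differed from WT IL-22 at the same amount and time.

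IL-22 acts on epithelial cells, which carry its receptor, and signals through the transcription factor STAT3, and in the gut it is known for epithelial defence and repair. In G1, D-type cyclins bind Cdk4 or Cdk6 and phosphorylate the retinoblastoma protein, which frees E2F factors to switch on E-type cyclins and the genes of DNA replication. Cdkn1b and Cdkn1a bind cyclin and kinase complexes and restrain them, above all those of cyclin E with Cdk2.

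After WT IL-22, Ccnd1, Ccne1, Ccne2 and E2f1 rose and Cdkn1b fell relative to PBS. After 22-B3, E2f1 and Ccne1 rose relative to PBS. Between the proteins, Ccnd1 alone of the 10 genes passed the test, at a level after 22-B3 about 0.496 times that after WT IL-22. The members stood on 7 chromosomes, and the sequences just before 3 of them are shown because they open the genes of a rising cyclin (Ccne1), of the inhibitor that fell (Cdkn1b) and of a kinase that did not pass any test (Cdk4). Each run holds 250 bases before and 50 after the RefSeq start site (GRCm38.p6), 5′ to 3′ on the gene's strand. Capitals mark GGGCGG on either strand in Ccne1 (chr7:38107441-38107740, minus strand), CCAAT on either strand in Cdkn1b (chr6:134920151-134920450, plus strand) and CACGTG in Cdk4 (chr10:127063285-127063584, plus strand).
Ccne1: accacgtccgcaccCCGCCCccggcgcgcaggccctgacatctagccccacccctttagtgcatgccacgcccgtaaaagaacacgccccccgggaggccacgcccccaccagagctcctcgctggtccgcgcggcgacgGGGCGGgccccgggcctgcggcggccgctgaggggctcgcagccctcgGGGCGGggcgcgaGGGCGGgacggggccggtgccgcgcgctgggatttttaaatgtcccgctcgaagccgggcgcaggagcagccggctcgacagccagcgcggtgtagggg
Cdkn1b: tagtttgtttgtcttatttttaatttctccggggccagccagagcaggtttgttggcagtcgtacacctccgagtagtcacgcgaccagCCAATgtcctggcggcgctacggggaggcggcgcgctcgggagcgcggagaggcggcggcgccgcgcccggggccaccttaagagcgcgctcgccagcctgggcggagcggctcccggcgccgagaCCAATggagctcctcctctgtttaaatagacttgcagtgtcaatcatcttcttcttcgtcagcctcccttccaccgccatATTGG
Cdk4: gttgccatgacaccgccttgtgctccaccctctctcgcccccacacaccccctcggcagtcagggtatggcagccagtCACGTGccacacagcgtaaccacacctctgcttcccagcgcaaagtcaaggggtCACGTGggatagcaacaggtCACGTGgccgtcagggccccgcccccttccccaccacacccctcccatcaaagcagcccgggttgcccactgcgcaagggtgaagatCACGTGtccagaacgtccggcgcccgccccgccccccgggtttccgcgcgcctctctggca
The Ccne1 window held 4 copies of GGGCGG, known as a GC box, the Cdkn1b window held 3 of CCAAT, and the Cdk4 window held 4 of CACGTG, the E-box that Myc can bind. Over 32851 windows of the same length, at least 1 GGGCGG was present in 35.7%, 1 CCAAT in 37.4% and 1 CACGTG in 7.15%. Windows were matched for 7 of the 10 members, and of these Cdk6 also held CACGTG. No window of these 7 members held the E2F words TTTCGCGC, TTTGGCGC, TTTCCCGC or TTTGCCGC. At least 1 of these words was in 2.26% of all windows. The STAT word TTCNNNGAA, in 8.3% of all windows, was absent too. The E2f1 window used a start site 466 bases inside the deposited gene, so the sequence before the deposited start was not searched. Cdkn1a and Ccnd3 each had another window, at a start site 2790 and 88416 bases inside the gene. Both strands were searched for every word, and overlapping copies of different words were not removed. These are matches of letters in a short window and do not show that a factor bound there.

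The D-type cyclins link outside signals to G1 entry. Ccnd1 (ENSMUSG00000070348, chromosome 7, 144929931 to 144939869 in mm10, minus strand) had levels of 116 and 108 TMM-normalized CPM, which is the count of a gene scaled to the library's total, in the 22-B3 libraries, 229 and 223 CPM in the WT IL-22 libraries, and 77.2 and 78.4 CPM in the PBS libraries. The groups did not overlap, with both WT IL-22 libraries highest, both PBS libraries lowest and 22-B3 between them. Against PBS, Ccnd1 rose by 1.54 on the log2 scale after WT IL-22 (SE 0.135, 95% interval 1.23 to 1.84, edgeR's quasi-likelihood test with Benjamini-Hochberg adjustment, called edgeR adjusted p from here on, 0.000671), a change of 2.90-fold. It was called under all 15 alternative analyses, with log2 changes of 1.42 to 1.55 and adjusted p up to 0.031. After 22-B3 the log2 difference from PBS was 0.53 (95% interval 0.22 to 0.83) and missed the threshold of 0.05 (edgeR adjusted p = 0.109). DESeq2 called it (adjusted p = 0.0317), as did the fits with the replicate number as a block (0.033) and without 22-B3 replicate 2 (edgeR adjusted p = 0.0202).

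The direct comparison of 22-B3 with WT IL-22 gave a log2 change of -1.01 in Ccnd1 (SE 0.133, 95% interval -1.31 to -0.71, edgeR adjusted p = 0.0401). It had the 15th smallest p of 15628 genes in a comparison in which 16 genes passed, 11 of them lower after 22-B3. The log2 change stayed between -1.07 and -0.96 over the 15 alternatives and was called in 9. The adjusted p was 0.266 with the compared groups alone and 0.252 when both PBS libraries were added up, 0.142 and 0.137 without WT IL-22 replicate 1 or 2, and 0.24 and 0.254 without PBS replicate 1 or 2.

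Ccnd2, the D-type cyclin with the highest FPKM in PBS (48.3 on the length-corrected scale), had 305 and 258 CPM in the 22-B3 libraries, 344 and 398 CPM in the WT IL-22 libraries, and 286 and 270 CPM in the PBS libraries. Both WT IL-22 libraries were above the other 4, and the 22-B3 and PBS libraries overlapped. The log2 difference was 0.42 for WT IL-22 against PBS (95% interval 0.050 to 0.78, edgeR adjusted p = 0.105) and 0.02 for 22-B3 against PBS (95% interval -0.35 to 0.39, edgeR adjusted p = 0.96). For 22-B3 against WT IL-22 it was -0.40 (95% interval -0.76 to -0.03, edgeR adjusted p = 0.488). The difference between WT IL-22 and PBS was called with those groups alone (edgeR adjusted p = 0.0248) and without 22-B3 replicate 1 or 2 (0.0306 and 0.024), and fell to 0.16 (adjusted p = 0.431) with the gene length trend removed.

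Ccnd3, the cyclin D of many differentiated tissues, had 64.8 and 73.1 CPM in the 22-B3 libraries, 72.2 and 64.7 CPM in the WT IL-22 libraries, and 61.6 and 61.1 CPM in the PBS libraries. All 3 group means lay between 61.4 and 68.9 CPM. The log2 difference was 0.17 for 22-B3 against PBS (95% interval -0.15 to 0.48, edgeR adjusted p = 0.537), 0.16 for WT IL-22 against PBS (95% interval -0.16 to 0.47, edgeR adjusted p = 0.448) and 0.01 for 22-B3 against WT IL-22 (95% interval -0.30 to 0.32, edgeR adjusted p = 0.985). Ccnd3 shares 361 bases with Bysl on the opposite strand, a ribosome assembly gene that rose after WT IL-22 by a log2 of 0.71 (edgeR adjusted p = 0.0241), and the strand setting of the counting is not given in the sources used here. Of the other members, Ccnd1, Ccnd2, Ccne2, Cdk4 and Cdk6 also share bases with a gene on the opposite strand, and Oraov1, the neighbour that shares 818 bases with Ccnd1, had a log2 difference of -0.23 after WT IL-22 (edgeR adjusted p = 0.373). The longest overlap, 5622 bases, was that of Ccne2 with Ints8. Against PBS, Ints8 had log2 differences of 0.10 after WT IL-22 (edgeR adjusted p = 0.664) and 0.07 after 22-B3 (edgeR adjusted p = 0.818).

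**Figure D1:**
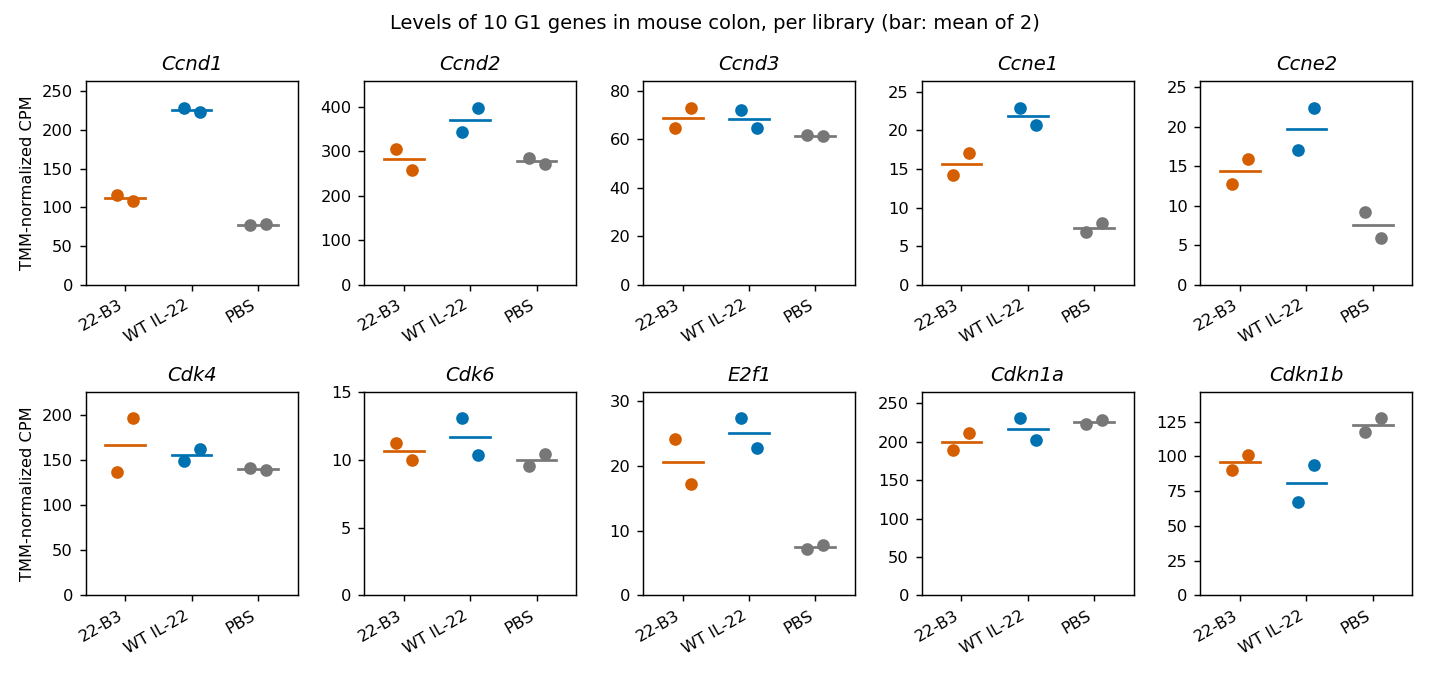
Levels of the 10 G1 genes in each library, in TMM-normalized CPM, 1 panel a gene, with points for libraries and bars at the mean of 2, for 22-B3, WT IL-22 and PBS from left to right. Ccnd1 stands highest after WT IL-22 at 229 and 223 CPM with 22-B3 between that and PBS, while the Cdk4, Cdk6 and Cdkn1a points of the treated groups overlap.

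Cdk4 and Cdk6 are the catalytic partners of the D-type cyclins. Cdk4 had 137 and 197 CPM in the 22-B3 libraries, 149.8 and 163 CPM in the WT IL-22 libraries, and 141 and 139.7 CPM in the PBS libraries. The 22-B3 libraries held both the lowest and the highest value of the 6. The log2 difference was 0.25 for 22-B3 against PBS (95% interval -0.17 to 0.66, edgeR adjusted p = 0.486), 0.16 for WT IL-22 against PBS (95% interval -0.26 to 0.57, edgeR adjusted p = 0.576) and 0.09 for 22-B3 against WT IL-22 (95% interval -0.32 to 0.51, edgeR adjusted p = 0.884). Cdk6 had 11.3 and 10.02 CPM in the 22-B3 libraries, 13.1 and 10.35 CPM in the WT IL-22 libraries, and 9.55 and 10.46 CPM in the PBS libraries, and every pair of groups overlapped. Its log2 differences were 0.09 for 22-B3 against PBS (95% interval -0.36 to 0.54, edgeR adjusted p = 0.834), 0.23 for WT IL-22 against PBS (95% interval -0.22 to 0.67, edgeR adjusted p = 0.436) and -0.14 for 22-B3 against WT IL-22 (95% interval -0.58 to 0.31, edgeR adjusted p = 0.842).

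The E-type cyclins activate Cdk2 at the end of G1. Ccne1 (ENSMUSG00000002068, chromosome 7, 38097984 to 38107534, minus strand) had 14.25 and 17.04 CPM in the 22-B3 libraries, 22.9 and 20.8 CPM in the WT IL-22 libraries, and 6.83 and 7.96 CPM in the PBS libraries. The 3 groups did not overlap. Against PBS, Ccne1 rose by a log2 of 1.08 after 22-B3 (SE 0.185, 95% interval 0.66 to 1.501, edgeR adjusted p = 0.0351) and by 1.56 after WT IL-22 (SE 0.184, 95% interval 1.14 to 1.98, edgeR adjusted p = 0.00217). The direct difference between 22-B3 and WT IL-22 was -0.48 (95% interval -0.88 to -0.08, edgeR adjusted p = 0.449). The rise after 22-B3 was called in 7 of 15 alternatives: the adjusted p was 0.379 when both PBS libraries were added up, 0.485 and 0.345 without PBS replicate 1 or 2, 0.0653 and 0.0664 without WT IL-22 replicate 1 or 2, 0.0698 with the compared groups alone, 0.0619 with upper-quartile scaling and 0.0543 with limma-voom. The rise after WT IL-22 was called in 14, and without PBS replicate 1 its edgeR adjusted p was 0.0539.

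Ccne2 (ENSMUSG00000028212, chromosome 4, 11191351 to 11204779, plus strand) had 12.8 and 16.0 CPM in the 22-B3 libraries, 17.05 and 22.4 CPM in the WT IL-22 libraries, and 9.19 and 5.93 CPM in the PBS libraries. The 3 groups were in the same order as for Ccne1 and did not overlap. It rose after WT IL-22 by a log2 of 1.38 against PBS (SE 0.253, 95% interval 0.81 to 1.96, edgeR adjusted p = 0.0109), a call lost without PBS replicate 2 (edgeR adjusted p = 0.135) or when both PBS libraries were added up (0.0831). After 22-B3 the log2 difference from PBS was 0.93 (95% interval 0.35 to 1.505, edgeR adjusted p = 0.131), called with DESeq2 (adjusted p = 0.0267) and with the replicate block (0.0352). The direct difference between 22-B3 and WT IL-22 was -0.46 (95% interval -1.01 to 0.098, edgeR adjusted p = 0.567), and it ran between -0.64 and -0.25 when a library was left out.

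E2f1 (ENSMUSG00000027490, chromosome 2, 154559407 to 154569892, minus strand) encodes an activating E2F factor that induces S-phase genes. It had 24.2 and 17.15 CPM in the 22-B3 libraries, 27.4 and 22.8 CPM in the WT IL-22 libraries, and 7.24 and 7.86 CPM in the PBS libraries. The 22-B3 and WT IL-22 libraries overlapped, and all 4 were above both PBS libraries. E2f1 rose in both comparisons with PBS, by a log2 of 1.45 after 22-B3 (SE 0.212, 95% interval 0.97 to 1.93, edgeR adjusted p = 0.0184) and of 1.73 after WT IL-22 (SE 0.212, 95% interval 1.25 to 2.21, edgeR adjusted p = 0.00236). The difference between 22-B3 and WT IL-22 was -0.28 (95% interval -0.74 to 0.17, edgeR adjusted p = 0.66), and it was -0.55 and -0.056 without 22-B3 replicate 1 or 2 and -0.15 without WT IL-22 replicate 1. Without PBS replicate 1 the edgeR adjusted p was 0.282 for 22-B3 and 0.0517 for WT IL-22. For 22-B3 it was 0.248 without PBS replicate 2 and 0.237 when both PBS libraries were added up.

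Of the inhibitors, Cdkn1b (ENSMUSG00000003031, chromosome 6, 134920401 to 134925513, plus strand) holds cells in quiescence. It had 90.4 and 101 CPM in the 22-B3 libraries, 67.5 and 93.7 CPM in the WT IL-22 libraries, and 118 and 127 CPM in the PBS libraries. Both PBS libraries were above the other 4, and the 22-B3 and WT IL-22 libraries overlapped. Against PBS it fell after WT IL-22, with a log2 change of -0.61 (SE 0.177, 95% interval -1.01 to -0.20, edgeR adjusted p = 0.0483), next to the threshold. The adjusted p was 0.258 without WT IL-22 replicate 1, 0.218 and 0.304 without PBS replicate 1 or 2, and 0.261 when both PBS libraries were added up. After 22-B3 the log2 difference from PBS was -0.36 (95% interval -0.76 to 0.045, edgeR adjusted p = 0.319), and between 22-B3 and WT IL-22 it was 0.25 (95% interval -0.15 to 0.65, edgeR adjusted p = 0.658). That last difference was 0.030 and 0.50 without WT IL-22 replicate 1 or 2, and 0.16 without 22-B3 replicate 2.

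Cdkn1a, the inhibitor that p53 induces, had 189 and 211 CPM in the 22-B3 libraries, 231 and 203 CPM in the WT IL-22 libraries, and 223 and 228 CPM in the PBS libraries. The WT IL-22 libraries lay on either side of the PBS libraries, and both 22-B3 libraries were below PBS. The log2 difference was -0.17 for 22-B3 against PBS (95% interval -0.50 to 0.16, edgeR adjusted p = 0.55), -0.06 for WT IL-22 against PBS (95% interval -0.39 to 0.27, edgeR adjusted p = 0.808) and -0.11 for 22-B3 against WT IL-22 (95% interval -0.45 to 0.22, edgeR adjusted p = 0.822).

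**Figure D2:**
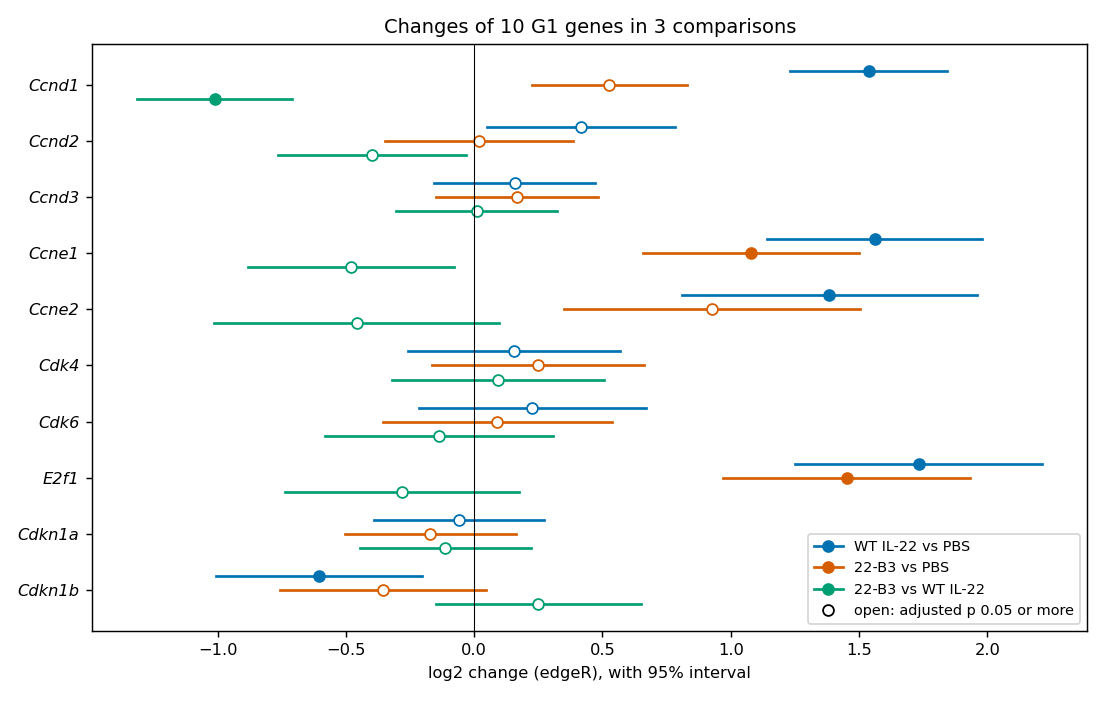
Log2 changes of the 10 genes with 95% intervals worked out from edgeR's quasi-likelihood test, filled where called, for both proteins against PBS and for 22-B3 against WT IL-22. Ccnd1, Ccne1, Ccne2 and E2f1 have intervals above 0 in both comparisons with PBS, and in the direct comparison Ccnd1 is farthest from 0 at -1.01.

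Counted over the set, 2 members rose and 0 fell after 22-B3 against PBS, where 0.947% of all tested genes rose and 0.154% fell (1.1% in either direction). Without adjustment 4 rose and 0 fell at p under 0.05, while DESeq2 gave 4 rising and 0 falling and limma-voom 1 rising and 0 falling. After WT IL-22 against PBS, 4 rose and 1 fell, where 9.9% of all tested genes rose and 6.74% fell (16.6% in either direction). In the direct comparison of 22-B3 with WT IL-22, 0 rose and 1 fell, where 0.032% of all tested genes rose and 0.0704% fell (0.102% in either direction). At an unadjusted p under 0.05, 0 rose and 3 fell, and DESeq2 and limma-voom each called 0 rising and 1 falling. Counted by whether libraries overlapped, 5 members were higher and 2 lower in both 22-B3 libraries than in both PBS libraries, where 27.7% of all tested genes were higher and 25.5% lower. For WT IL-22 against PBS, 7 were higher and 1 lower, where 34.2% were higher and 35.3% lower. For the direct comparison, 0 were higher and 4 lower, where 17.6% were higher and 17.3% lower. The median log2 change of the 10 members was 0.21 for 22-B3 against PBS, 0.32 for WT IL-22 against PBS and -0.21 between the proteins, beside medians over all tested genes of 0.01, -0.01 and 0.00. The comparisons with PBS share the PBS libraries, and each treated group enters the direct comparison, so the values of the 3 are not independent. Under upper-quartile scaling the median of all genes moved by -0.11 for 22-B3 against PBS and by -0.12 for WT IL-22 against PBS. The calls over all genes were then 93 rising and 28 falling for 22-B3 against PBS, instead of 148 and 24, and 1090 rising and 1566 falling for WT IL-22 against PBS, instead of 1547 and 1054.

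Per length, on the deposited FPKM scale, the makeup of the cyclin D pool differed between the groups, which is given as a description with no test. Ccnd1 made up 30.65% and 30.98% of the summed FPKM of the 3 D-type cyclins in the 22-B3 libraries, 43.65% and 40.75% in the WT IL-22 libraries, and 23.8% and 24.88% in the PBS libraries, with no overlap between groups. Ccnd2 made up 52.8% and 48.66% in the 22-B3 libraries, 43% and 47.78% in the WT IL-22 libraries, and 57.79% and 56.3% in the PBS libraries. Ccnd2 was thus the largest share in 5 of the 6 libraries, and Ccnd1 in WT IL-22 replicate 1. The summed FPKM of the D-type cyclins was 104 and 87.8 in the 22-B3 libraries, 144.7 and 149 in the WT IL-22 libraries, and 87.3 and 82.0 in the PBS libraries. The E-type cyclins summed to 11.6 and 13.1 FPKM in the 22-B3 libraries, 17.7 and 18.2 FPKM in the WT IL-22 libraries, and 6.52 and 5.80 FPKM in the PBS libraries.

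Ccne1 was the larger E-type cyclin in every group, with a mean share of 62.1% after 22-B3, 62.5% after WT IL-22 and 59.8% in PBS. Cdk4 made up 96.5% of the summed FPKM of Cdk4 and Cdk6 after 22-B3, 96.0% after WT IL-22 and 96.2% in PBS. Cdkn1a had the highest mean FPKM of the 10 members in each group, at 103 after 22-B3, 116.4 after WT IL-22 and 117 in PBS, and Cdk6 or Ccne2 the lowest. The ratio of Ccnd1 to Cdkn1b in FPKM was 1.57 and 1.29 in the 22-B3 libraries, 4.13 and 2.89 in the WT IL-22 libraries, and 0.797 and 0.749 in the PBS libraries. The ratio of the summed inhibitors to the summed D-type cyclins was 1.17 and 1.43 in the 22-B3 libraries, 0.967 and 0.867 in the WT IL-22 libraries, and 1.64 and 1.75 in the PBS libraries. Both of these RNA ratios hold Ccnd1 and Cdkn1b, which were called after WT IL-22, so they add no evidence beyond the single genes. On both ratios the 3 groups did not overlap, with 22-B3 between WT IL-22 and PBS. The ratio of the summed D-type cyclins to the summed Cdk4 and Cdk6 did not follow that order: it was 1.455 and 0.944 in the 22-B3 libraries, 1.83 and 1.78 in the WT IL-22 libraries, and 1.22 and 1.19 in the PBS libraries, so that 22-B3 overlapped PBS.

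**Figure D3:**
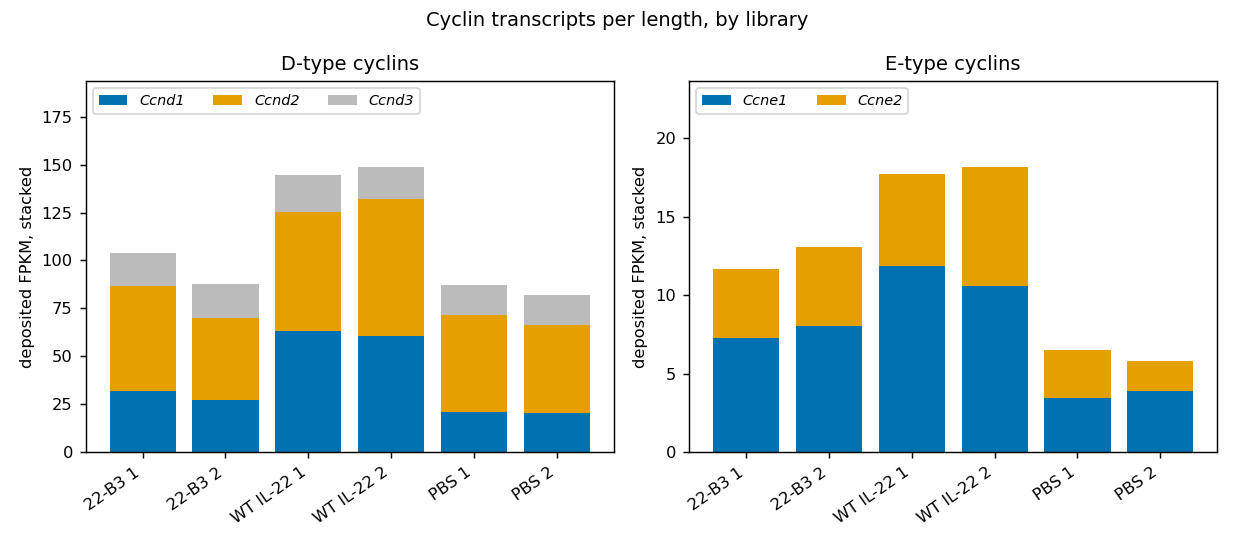
FPKM per library of the 3 D-type cyclins, stacked, and of the 2 E-type cyclins, stacked, for 22-B3, WT IL-22 and PBS from left to right. The D-type sum is 144.7 and 149 FPKM after WT IL-22 against 87.3 and 82.0 FPKM in PBS, and the Ccnd1 part is the one that grows most.

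Genes that act beside the 10 members were taken from textbook lists, also chosen with earlier results of these data known. Over all tested genes, 0.947% rose and 0.154% fell after 22-B3 against PBS. After WT IL-22 against PBS, 9.9% of them rose and 6.74% fell. Between the proteins, 0.032% rose and 0.0704% fell. Of 26 tested other G1/S regulators, 3 rose and 0 fell after 22-B3 against PBS (0 lower at an unadjusted p under 0.05 or with DESeq2 or limma-voom), and 10 rose and 1 fell after WT IL-22 against PBS, with list medians of 0.37 and 0.44 on the log2 scale. At an unadjusted p under 0.05, 12 were higher after 22-B3, and 14 were higher and 5 lower after WT IL-22. DESeq2 called 5 rising after 22-B3 and 12 after WT IL-22, and limma-voom 3 and 10. E2f8, an E2F family repressor that E2F itself induces, averaged 28.2 ± 2.79 CPM after 22-B3, 45.0 ± 9.13 CPM after WT IL-22 and 8.11 ± 0.437 CPM in PBS (SD, n = 2 libraries each), and rose by a log2 of 1.80 after 22-B3 (edgeR adjusted p = 0.00427) and 2.47 after WT IL-22 (edgeR adjusted p = 0.000397). E2f2, another activating E2F, rose by 1.34 after 22-B3 (edgeR adjusted p = 0.0171) and 2.01 after WT IL-22 (edgeR adjusted p = 0.000873). Tfdp1, the DNA-binding partner of E2F factors, rose by 0.80 after 22-B3 (edgeR adjusted p = 0.0386) and 0.96 after WT IL-22 (edgeR adjusted p = 0.00494). Cdk2, the kinase of cyclin E, rose after WT IL-22 by 1.09 (edgeR adjusted p = 0.00494). After 22-B3 its difference from PBS was 0.79 (edgeR adjusted p = 0.0622), and its direct difference was -0.30 (edgeR adjusted p = 0.555). The 1 gene of the list that fell after WT IL-22 in this fit (4 fell with upper-quartile scaling, 5 with the compared groups alone, 3 with the length trend removed and 2 with the replicate block) was Cdkn2b (p15), an inhibitor of Cdk4 and Cdk6, singled out after its values were seen: it averaged 41.9 ± 0.334 CPM after 22-B3, 27.6 ± 2.33 CPM after WT IL-22 and 46.2 ± 0.973 CPM in PBS (SD, n = 2 each), a log2 change of -0.74 for WT IL-22 against PBS (edgeR adjusted p = 0.0125). In 22-B3 against WT IL-22, 0 rose and 0 fell (2 and 3 at an unadjusted p under 0.05, 0 with DESeq2 or limma-voom), and Cdkn2b differed by 0.60 (edgeR adjusted p = 0.224).

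Of 23 S-phase genes that E2F factors are known to regulate, 15 rose and 0 fell after 22-B3 and 19 rose and 0 fell after WT IL-22 against PBS, with medians of 1.39 and 1.73. No gene of this list fell in either at an unadjusted p under 0.05, or with DESeq2 or limma-voom. At that unadjusted p, 22 were higher after 22-B3 and 20 after WT IL-22. DESeq2 called 19 and 20 rising, and limma-voom 15 and 19. Mcm5, a subunit of the replicative helicase, averaged 121.3 ± 3.03 CPM after 22-B3, 151 ± 5.61 CPM after WT IL-22 and 40.9 ± 0.705 CPM in PBS (SD, n = 2 each). It rose by 1.57 after 22-B3 (edgeR adjusted p = 0.00186) and by 1.89 after WT IL-22 (edgeR adjusted p = 0.000286). Among the other helicase subunits, Mcm6 rose by 1.82 after 22-B3 (edgeR adjusted p = 0.00186) and 2.14 after WT IL-22 (edgeR adjusted p = 0.000359). Mcm3 rose by 1.85 after 22-B3 (edgeR adjusted p = 0.00215) and 2.30 after WT IL-22 (edgeR adjusted p = 0.000323). In 22-B3 against WT IL-22, 0 of the 23 passed in either direction, with 7 lower at an unadjusted p under 0.05 0 called by DESeq2 or limma-voom and a median of -0.30, and Mcm3 differed by -0.46 (edgeR adjusted p = 0.443).

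Of 12 mitosis genes, 1 rose after 22-B3 and 5 rose after WT IL-22 against PBS, and 0 fell in either (0 and 1 lower at an unadjusted p under 0.05, 0 with DESeq2 or limma-voom), with medians of 0.33 and 0.41. At that unadjusted p, 4 were higher after 22-B3 and 6 after WT IL-22. DESeq2 called 2 and 5 rising, and limma-voom 1 and 4. In 22-B3 against WT IL-22, 0 passed, with 2 lower at an unadjusted p under 0.05, 0 with DESeq2 or limma-voom and a median of -0.04. Top2a, a topoisomerase of dividing cells, rose by 1.03 after 22-B3 (edgeR adjusted p = 0.0267) and by 1.55 after WT IL-22 (edgeR adjusted p = 0.00162). Its direct difference was -0.52 (edgeR adjusted p = 0.372). Of 18 p53 target genes, 0 passed after 22-B3 against PBS (without adjustment 2 were higher and 2 lower at p under 0.05, 1 falling and 0 rising with DESeq2, 0 with limma-voom), and 1 rose and 4 fell after WT IL-22. The 4 were Bbc3, which promotes cell death, with a log2 change of -1.24 (edgeR adjusted p = 0.00933), Sesn1, a stress-response gene, with -0.84 (edgeR adjusted p = 0.011), and, named after their values were seen, Trp53inp1 with -0.89 (edgeR adjusted p = 0.0143) and Btg2 with -0.45 (edgeR adjusted p = 0.0439). Aen, a nuclease gene, was the 1 that rose, by 0.75 (edgeR adjusted p = 0.0135). The medians of the list were -0.05 after 22-B3 and -0.25 after WT IL-22. In 22-B3 against WT IL-22 it had 0 calls (3 higher at an unadjusted p under 0.05, 0 with DESeq2 or limma-voom) and a median of 0.20.

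Of 17 transcription factors and kinases upstream of G1 genes, 0 passed after 22-B3 against PBS (without adjustment 3 were higher and 1 lower at p under 0.05, 1 rising with DESeq2, 0 with limma-voom), and 6 rose and 0 fell after WT IL-22 (1 lower at an unadjusted p under 0.05, 0 with DESeq2 or limma-voom), with medians of 0.29 and 0.46. At that unadjusted p, 9 were higher after WT IL-22, and DESeq2 called 8 rising and limma-voom 6. Bcl3, a partner of NF-κB proteins, averaged 43.1 ± 3.98 CPM after 22-B3, 99.4 ± 29.2 CPM after WT IL-22 and 30.04 ± 1.3 CPM in PBS (SD, n = 2 each), a log2 change of 1.73 for WT IL-22 against PBS (edgeR adjusted p = 0.00219). Pim3, a growth-promoting kinase, rose after WT IL-22 by 1.09 (edgeR adjusted p = 0.00379), and Stat3 by 1.16 (edgeR adjusted p = 0.00812). Myc, a factor known to act on several G1 genes and named here after its values were seen, averaged 19.9 ± 4.13 CPM after 22-B3, 44.8 ± 13.0 CPM after WT IL-22 and 17.5 ± 1.48 CPM in PBS (SD, n = 2 each). It rose after WT IL-22 by 1.36 (edgeR adjusted p = 0.00876), with a log2 difference of 0.19 for 22-B3 against PBS (edgeR adjusted p = 0.691) and -1.17 for 22-B3 against WT IL-22 (edgeR adjusted p = 0.136). In the direct comparison, 0 of the 17 passed in either direction, with 6 lower at an unadjusted p under 0.05 and 4 lower called by DESeq2, 0 by limma-voom and a median of -0.29. The largest of these were Egr1 at -1.22 (edgeR adjusted p = 0.121) and Bcl3 at -1.21 (edgeR adjusted p = 0.0965).

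When both PBS libraries were added up into 1, the lists' rising counts after 22-B3 were all 0, and after WT IL-22 they were 2 for the other G1/S regulators, 14 for the S-phase genes, 1 for the mitosis genes, 0 in either direction for the p53 targets and 1 for the upstream genes. Without PBS replicate 1 or 2 the rising counts after 22-B3 were 0 in every list, while after WT IL-22 they were 14 for the S-phase genes, 2 for the other G1/S regulators, 1 for the mitosis genes and 1 for the upstream genes, the same in both cases. Without WT IL-22 replicate 1, 4 other G1/S regulators, 1 mitosis gene and 2 upstream genes rose after WT IL-22. In these 3 fits Cdkn2b and the p53 targets had no falling call, and Cdkn2b was not called without WT IL-22 replicate 2 either. By contrast, without 22-B3 replicate 1 or 2, more p53 targets and other G1/S regulators fell after WT IL-22, and more upstream genes rose. Without 22-B3 replicate 2, more other G1/S regulators, mitosis genes and upstream genes rose after 22-B3, and some of the G1/S and mitosis lists fell. Without WT IL-22 replicate 1 or 2, no mitosis gene, Top2a included, passed after 22-B3. Without 22-B3 replicate 1, some S-phase, mitosis and upstream genes were called lower after 22-B3 than after WT IL-22. In these fits without a 22-B3 library, the calls over all genes rose as well. In the fits that summed or left out PBS libraries, the calls over all genes fell as well. The list counts of these fits therefore cannot be read apart from that shift.

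**Figure D4:**
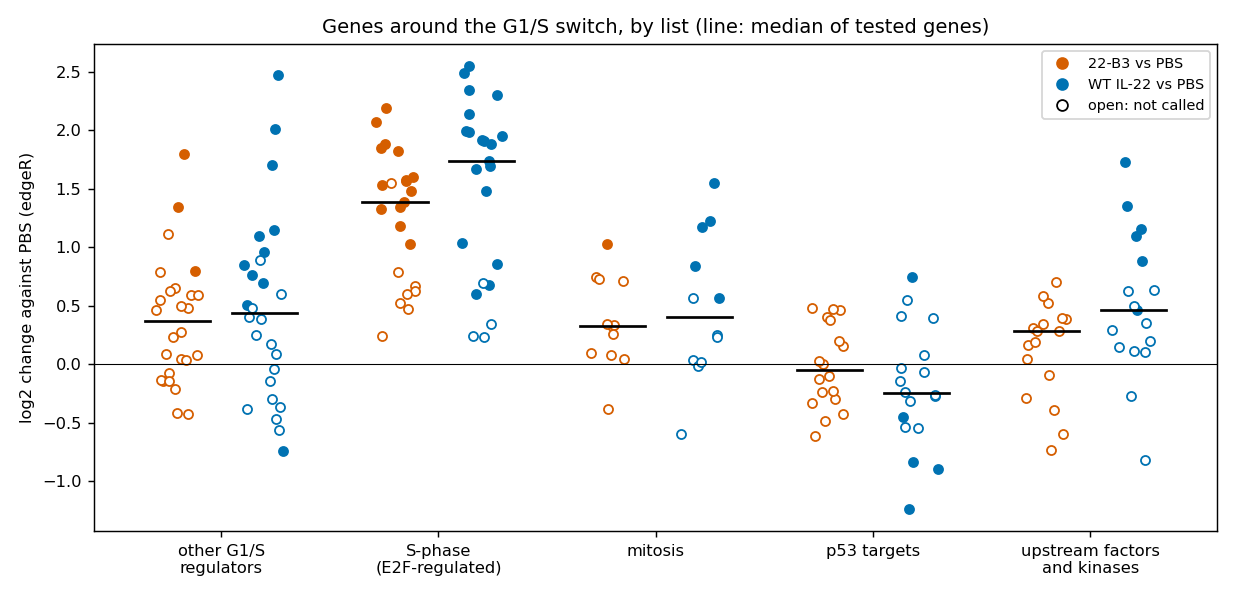
Log2 changes against PBS of the tested genes of the 5 textbook lists, after 22-B3 (left in each list) and after WT IL-22 (right), with a point a gene, filled where it was called, and a line at the median. The S-phase list stands highest, with medians of 1.39 after 22-B3 and 1.73 after WT IL-22.

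In whole tissue, a change in the number of cells of a type and a change in RNA per cell cannot be told apart. Epithelial markers, 7 of 7 tested, summed to 13738 and 14475 CPM in the 22-B3 libraries, 12911 and 12755 CPM in the WT IL-22 libraries, and 12075 and 12130 CPM in the PBS libraries. Crypt stem and progenitor markers summed to 290.5 and 229.6 CPM in the 22-B3 libraries, 319.3 and 234.5 CPM in the WT IL-22 libraries, and 201.5 and 198.7 CPM in the PBS libraries. Of the 6 tested in this list only 1, Ephb2, rose after WT IL-22, and Olfm4 was at or near 0. Smooth muscle markers summed to 8521 and 10665 CPM in the 22-B3 libraries, 5985 and 8619 CPM in the WT IL-22 libraries, and 12352 and 12480 CPM in the PBS libraries, and Acta2, Tagln and Actg2, 3 of 6, fell after WT IL-22. Macrophage markers summed to 163 and 147 CPM in the 22-B3 libraries, 116.5 and 153 CPM in the WT IL-22 libraries, and 181 and 186 CPM in the PBS libraries, and 2 of 5 fell after WT IL-22. After WT IL-22, 2 of 7 epithelial markers rose, as did 1 of 6 for surface colonocytes and 1 of 5 for endothelium. In the same comparison 1 of 6 fell for fibroblasts and 1 of 4 tested for germinal centre B cells. Over all tested genes 9.9% rose and 6.74% fell after WT IL-22, so 1 call in so short a list is not read as a result. B cell markers summed to 34.55 and 9.69 CPM in the 22-B3 libraries, 24.0 and 31.95 CPM in the WT IL-22 libraries, and 49.15 and 50.2 CPM in the PBS libraries. T cell markers summed to 9.70 and 6.52 CPM in the 22-B3 libraries, 8.08 and 11.2 CPM in the WT IL-22 libraries, and 12.4 and 12.6 CPM in the PBS libraries. Both sums were lower in all 4 treated libraries than in PBS, although none of the 6 markers of either list passed. No marker passed in 22-B3 against PBS or in 22-B3 against WT IL-22. The smooth muscle, macrophage, B cell and T cell sums were lower in both treated groups than in PBS, with no overlap. The epithelial and the crypt stem and progenitor sums were higher in both treated groups than in PBS, also with no overlap. Single markers did not all follow these sums, and Krt8 alone held 5061 and 5330 CPM in the PBS libraries. For WT IL-22 against PBS, Epcam, Krt18, Krt19 and Smoc2 had log2 differences of -0.15, -0.08, -0.07 and -0.12, none called. The other tested markers of these lists had positive differences there. These markers were named after their values were seen. The part of the shifts in the marker sums, in either direction, in the G1 gene changes was not tested.

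The log2 changes also moved with gene length. Over genes above 5 CPM in 8 bins of length, the median for WT IL-22 against PBS was -0.45 in the shortest bin (78 to 1451 bases) and 0.34 in the longest (6110 to 40378 bases). For 22-B3 against PBS the same bins had medians of -0.16 and 0.20, and for 22-B3 against WT IL-22 they had 0.29 and -0.17. The members lie between 1910 bases (Cdkn1a) and 5701 bases (Ccnd2). With the trend removed, an alternative chosen after seeing the data, the calls were 2 rising after 22-B3, 4 rising and 1 falling after WT IL-22, and 1 falling in the direct comparison, as without it. In that fit the log2 change for WT IL-22 against PBS was 1.42 in Ccnd1, 1.68 in Ccne1, 1.73 in E2f1 and -0.79 in Cdkn1b, and the direct change in Ccnd1 was -0.98 (adjusted p = 0.011).

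**Figure D5:**
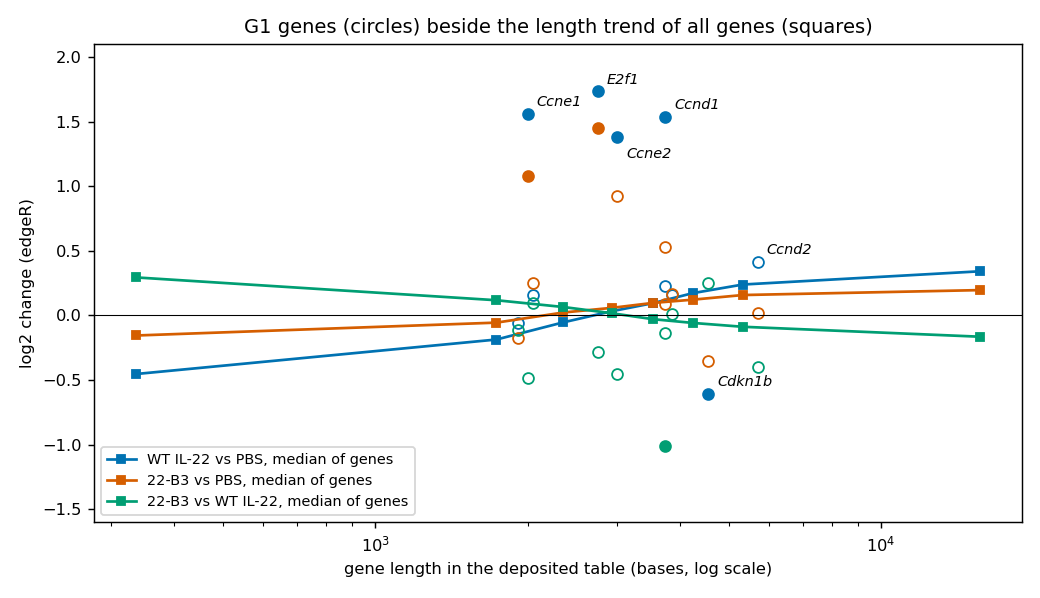
Log2 change against gene length on a log axis, with squares for the median of genes above 5 CPM in 8 length bins and circles for the 10 G1 genes, filled where called, coloured by comparison. The squares of WT IL-22 against PBS run between -0.45 and 0.34, and Ccnd1, Ccne1, Ccne2 and E2f1 lie above them.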

How the data were processed

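The deposited read counts per gene were made by the authors with STAR 2.5 on mm10, per the submitters' processing notes. The counter, annotation release and strand setting are not given in the sources used here. The authors also deposited FPKM, which scale each count by gene length and library total, so longer genes do not look more abundant. These were used for levels between genes and for sums, shares and ratios within a library. Those sums, shares and ratios are set side by side across groups without a test, and the TMM scaling was not applied to them. Libraries were made from 0.2 µg RNA with mRNA enrichment, per the labels' protocols. In R 4.3.3, edgeR 4.0.16 kept 15628 genes with filterByExpr, scaled by TMM, and fitted 1 mean per group to all 6 libraries with the robust quasi-likelihood test. The 3 comparisons were adjusted by Benjamini-Hochberg over all tested genes, and a gene was called at 0.05. The SE of a log2 change was worked out from that change and the F statistic of the test, which gives no SE itself. Intervals are at 95%, from this SE and a t quantile. An exact permutation test of 2 against 2 libraries cannot go below p = 0.333, so none is given.

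The script was also run on simulated data with the same spread per gene in every group and no length trend. That run cannot speak to groups of unequal spread or to the length trend seen here. The alternatives were 14 planned ones and 1 added after seeing the data, the removal of the length trend: other scalings (RLE, upper quartile), no low-count filter, DESeq2 1.42.0, limma-voom (limma 3.58.1), the compared groups alone, a replicate block, summed PBS libraries and leaving out each library. All 10 members are named, and for each list the 3 genes with the smallest p per comparison were taken as candidates, of which some are printed, and any others are marked as chosen after their values were seen. The members, lists and tests were chosen with earlier results of these data known. Promoter windows are from RefSeq (GRCm38.p6), matched by symbol.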

Additional observations from a re-analysis of the deposited data

How the results depend on the processing

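Replicate numbers were shared between groups, but the deviations of same-numbered libraries correlated at 0.29 between 22-B3 and WT IL-22, 0.0488 between 22-B3 and PBS, and 0.062 between WT IL-22 and PBS over 15628 genes. The labels give no shared animal, batch or day for a number, so the numbers were not taken as pairs. The correlation was over 0.1 only between the treated groups, and whether their libraries were paired was not tested. With the replicate number as a block, the direct change in Ccnd1 was -1.01 (edgeR adjusted p = 0.00176). With the replicate block, 4 members rose after 22-B3 against PBS, and the calls over all genes were 1063, against 4504 for WT IL-22 against PBS and 183, in place of 16, for 22-B3 against WT IL-22. Members rising after 22-B3 (2) numbered 1 with upper-quartile scaling, limma-voom or the compared groups alone, 4 with DESeq2, 0 with PBS summed, and 0 to 3 when a library was left out. After WT IL-22, 2 to 5 members rose (4) and 0 to 1 fell when a library was left out, and 0 fell with PBS summed. In 22-B3 against WT IL-22, 0 fell with the compared groups alone or PBS summed, and 0 to 1 when a library was left out. Calls over all genes for 22-B3 against PBS (172) were 431 with no filter, 691 with DESeq2, 3 with PBS summed, 415 with the length trend removed and 2 to 2262 when a library was left out. For WT IL-22 against PBS (2601) they were 5057 with the compared groups alone, 154 with PBS summed and 135 to 4971 when a library was left out. For 22-B3 against WT IL-22 (16) they were 101 with no filter, 187 with DESeq2, 4 with the compared groups alone or PBS summed, 49 with the length trend removed and 4 to 757 when a library was left out. Signs turned only in members that did not pass. For 22-B3 against PBS, Ccnd2 was -0.0905 with upper-quartile scaling, -0.011 with the compared groups alone, -0.13 with the length trend removed and ran between -0.13 and 0.14 when a library was left out. Over the same libraries Cdk4 ran between -0.033 and 0.46 and Cdk6 between -0.024 and 0.18, and Cdk6 was -0.020 with upper-quartile scaling and -0.0011 with the length trend removed. For WT IL-22 against PBS, Cdkn1a ran between -0.18 and 0.0066 when a library was left out and was 0.087 with the length trend removed. For 22-B3 against WT IL-22, Ccnd3 was -0.00059 with RLE scaling, -0.00058 with DESeq2 and between -0.081 and 0.092 when a library was left out, where Cdk4 ran between -0.19 and 0.33 and Cdk6 between -0.30 and 0.037. The cause of these changes was not tested. With 2 libraries a group, a leave-one-out fit takes the lone library to vary like the other groups. Each edgeR fit shares 1 spread per gene over its groups. Among the members, the SD in CPM was smaller in PBS than in both treated groups for all but Ccne2. For Cdk4 it was 0.974 in PBS, 9.28 after WT IL-22 and 42.3 after 22-B3, and for Ccne2 2.31, 3.81 and 2.26. The part of this in the calls was not tested.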
